A study of Mus musculus with 6 samples.

Results

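Pax3, Pax7, Msx1, Msx2, Olig3, Lbx1, Atoh1, Zic1, Zic2 and Lmx1a encode transcription factors of the dorsal neural tube, the side of the embryonic spinal cord and hindbrain that gives rise to sensory relay neurons and neural crest. These 10 genes were chosen by symbol, and all 10 were found among the 24002 genes of the RNA-seq table. R1 mouse embryonic stem cells, grown with 15% serum replacement and the self-renewal cytokine LIF at 1000 U/ml, were aggregated into embryoid bodies by hanging drop culture for 48 h. The embryoid bodies were kept in medium with retinoic acid, given as 0.5 mM in the labels, and sampled at day 6. Polyadenylated RNA was sequenced in 3 replicates. There is no untreated or earlier sample beside them, so every value here is a level at day 6 and not a change. Micromolar doses are usual, so the unit of the dose is uncertain. The labels do not say whether the replicates came from separate cultures, and the spread between them may be technical.

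In the embryo, BMP and Wnt ligands from the surface ectoderm and the roof plate pattern the dorsal neural tube, and Hedgehog from the floor plate patterns the ventral side. Roof plate cells use Lmx1a, progenitors next to it use Msx1, Msx2 and Atoh1, Olig3 marks the dorsal-most progenitor domains, and Pax3, Pax7, Zic1 and Zic2 span a wider dorsal field. Lbx1 is switched on later, in newborn neurons of the intermediate dorsal classes dI4, dI5 and dI6. Retinoic acid promotes neural fate and sets a hindbrain to spinal cord position along the body axis.

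Expression is given as FPKM, which divides the fragments of a gene by its length and by the mapped total, so levels can be set side by side between genes. The cells carried a neural programme. All 10 genes of a list of neural progenitor and neuron markers reached at least 1 FPKM in every replicate, where 50.7% of all genes did. They were led by Fabp7 at 910 ± 8.47 and Tubb3 at 645 ± 8.48 FPKM (SD, n = 3). The absolute depth is unknown. The steps between low values put replicate 1 at 1.56 times the depth of replicate 2 and 1.17 times that of replicate 3, so replicate 2 is the least precise for low genes.

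Promoter windows from RefSeq (build GRCm38.p6) were at hand for 7 of the 10 members and are not given here for Pax3, Lbx1 and Zic2. Shown are the 200 bases before the annotated start of 4 members that span the range of levels, with Olig3 and Msx1 near 1 FPKM, Zic1 near 0.1 FPKM and Atoh1 listed at 0. They lie at chr10:19356339-19356538 (plus strand), chr5:37824586-37824785 (minus strand), chr9:91365769-91365968 (minus strand) and chr6:64728925-64729124 (plus strand). Each is written 5′ to 3′ along the gene's strand, and capitals mark matches to the motifs named after them.
Olig3: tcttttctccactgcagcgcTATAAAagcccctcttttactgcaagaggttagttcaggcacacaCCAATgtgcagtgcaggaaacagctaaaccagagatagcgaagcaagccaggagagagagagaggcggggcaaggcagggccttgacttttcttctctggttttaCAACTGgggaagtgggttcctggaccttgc
Msx1: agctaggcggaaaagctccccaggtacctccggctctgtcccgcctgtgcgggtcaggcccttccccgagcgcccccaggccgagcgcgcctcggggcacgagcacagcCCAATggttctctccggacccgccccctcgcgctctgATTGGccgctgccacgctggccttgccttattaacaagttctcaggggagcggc
Zic1: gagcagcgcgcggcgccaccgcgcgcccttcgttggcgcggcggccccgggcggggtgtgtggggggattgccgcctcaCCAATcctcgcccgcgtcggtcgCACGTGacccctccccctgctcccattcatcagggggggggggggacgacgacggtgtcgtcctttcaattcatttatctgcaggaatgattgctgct
Atoh1: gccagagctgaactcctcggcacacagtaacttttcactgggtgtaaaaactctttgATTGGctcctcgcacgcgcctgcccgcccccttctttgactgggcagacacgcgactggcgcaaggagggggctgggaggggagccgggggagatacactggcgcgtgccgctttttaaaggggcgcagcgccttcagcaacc
The motifs searched on both strands were the E-box CANNTG, bound by basic helix-loop-helix factors such as Atoh1 and Olig3, the TATA box TATAAA, the CCAAT box CCAAT, the homeodomain core TAATTA and the nuclear receptor hexamer AGGTCA. No matches of different motifs overlapped in these 4 windows. The Olig3 window held a TATA box, found in 9.96% of all 32851 windows of this length, together with a CCAAT box and an E-box. A CCAAT box was present in 5 of the 7 members and in 29.3% of all windows. The E-box was present in 4 of 7 and in 58.2% of all, and TAATTA in 1 of 7, Msx2, and in 3.73% of all. AGGTCA was in none of the 7 and in 11.4% of all windows. These matches describe letters in the window and not binding.

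The dorsal genes were low throughout, at the level of a few FPKM or less. Lbx1 was the only member at 1 FPKM or more in every replicate, the level at which a gene is called expressed here. Thus 1 of 10 members was expressed, where 50.7% of all genes in the table were. The median over the members' means was 0.385 FPKM, against 1.31 FPKM over all genes. All 10 together summed to 5.60, 6.54 and 6.29 FPKM in replicates 1, 2 and 3. At a threshold of 0.5 FPKM 5 members passed, where 54.4% of all genes did. None reached 5 FPKM in every replicate, where 35.7% of all genes did, and 3 had a mean of at least 1 FPKM, where 51.8% of all genes did. The count of expressed members was 2 without replicate 1, which added Msx1, and 2 without replicate 3, which added Olig3.

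**Figure D1:**
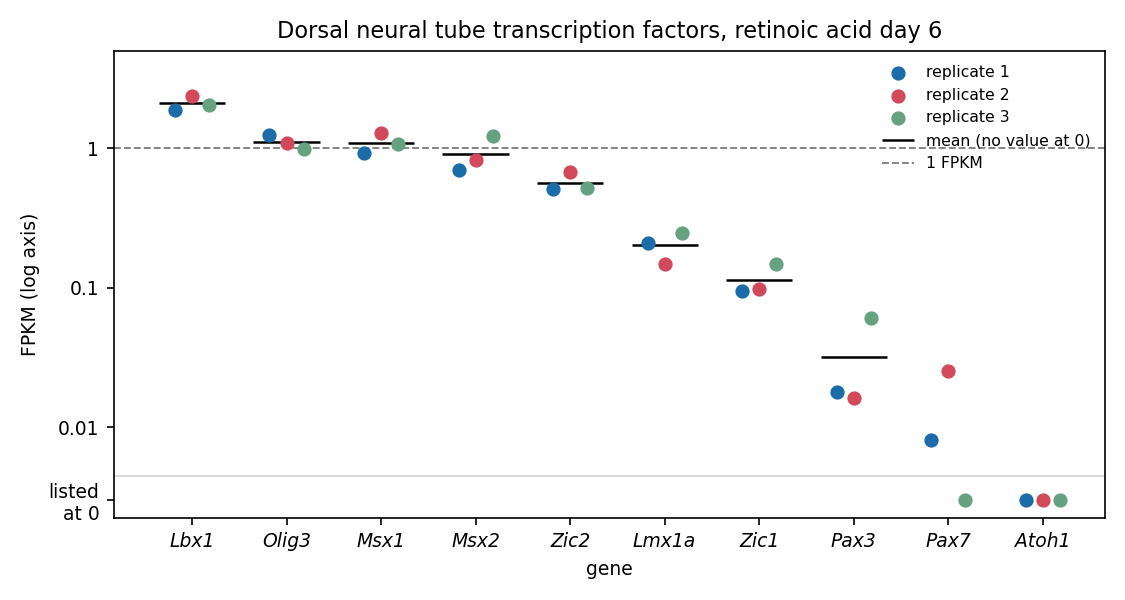
FPKM of the 10 dorsal genes (log axis, with values of 0 drawn in the lowest band), with a point for each replicate, a bar for the mean where no replicate is at 0 and a dashed line at 1 FPKM. Lbx1 lies above the line in all 3 replicates, Olig3, Msx1 and Msx2 straddle it, and Atoh1 is listed at 0 in each.

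Lbx1, a homeobox gene that specifies the GABAergic dI4 and dI6 classes and is also used by migrating muscle precursors, stood at 1.88, 2.37 and 2.04 FPKM in replicates 1, 2 and 3. Its mean was 2.10 ± 0.251 FPKM (SD, n = 3), above the means of 53.6% of all genes. The replicates lay close together, and none came near the next member. Its relative Lbx2 was listed at 0.113, 0.0886 and 0 FPKM, below Lbx1 in all 3 libraries. Lhx1 and Pax2, which mark inhibitory neurons of the dorsal dI4 and dI6 classes and also ventral V0 and V1 neurons, were far higher, at 26.7 ± 1.89 and 17.9 ± 1.6 FPKM. The log2 ratio of Lbx1 over Pax2 was -3.10 ± 0.05 and that over Lhx1 was -3.67 ± 0.26 (SD, n = 3), with Lbx1 the lower in each library.

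Olig3, a basic helix-loop-helix gene of the dI1, dI2 and dI3 progenitors, stood at 1.25, 1.09 and 0.988 FPKM, a mean of 1.11 ± 0.134 (SD, n = 3). It passed 1 FPKM in replicates 1 and 2 and was just below it in replicate 3. Its relative Olig2, which marks the ventral progenitors of motor neurons and later of oligodendrocytes, reached 32.5, 34.8 and 33.3 FPKM. The log2 ratio of Olig3 over Olig2 was -4.92 ± 0.20 (SD, n = 3), so Olig2 stood 30.2-fold above it by the means. Olig1, an oligodendrocyte lineage gene, stood at 19.6 ± 0.836 FPKM. Within the Olig family the dorsal gene was thus the lowest in every library.

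Msx1 and Msx2, homeobox genes induced by BMP signalling, had overlapping values. Msx1 stood at 0.927, 1.30 and 1.07 FPKM, a mean of 1.10 ± 0.186 (SD, n = 3), and Msx2 at 0.697, 0.821 and 1.22, a mean of 0.912 ± 0.272. Msx1 was the higher in replicates 1 and 2 and Msx2 in replicate 3, with a log2 ratio of Msx1 over Msx2 of 0.29 ± 0.44. The order of the pair is therefore not resolved. Msx3, the family member restricted to the dorsal neural tube in the mouse, stood lower, at 0.510, 0.373 and 0.262 FPKM, below Msx1 in all 3 libraries. Msx2 varied most of the 5 members near 1 FPKM. Its coefficient of variation was 29.8%, above that of 89.9% of the 2681 genes with means between 0.5 and 2.5 FPKM, whose median was 12.4%. Those of Lbx1, Olig3, Zic2 and Msx1 were 11.9%, 12.0%, 15.7% and 17.0%.

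Zic2 and Zic1, zinc finger genes of dorsal progenitors, differed in level. Zic2 stood at 0.515, 0.672 and 0.520 FPKM, a mean of 0.569 ± 0.0892 (SD, n = 3). Zic1 stood at 0.0945, 0.0982 and 0.148 FPKM, a mean of 0.113 ± 0.0298. Zic2 was above Zic1 in all 3 libraries, with a log2 ratio of Zic2 over Zic1 of 2.34 ± 0.49. Zic5 stood at 0.0935 ± 0.0573 FPKM, and Zic4 was listed at 0, 0.0132 and 0. Zic4 and Zic5 are next to Zic1 and Zic2 in the gene order of GRCm38, and neither member of these neighbouring pairs reached 1 FPKM. Zic2 is also known from pluripotent cells, whose markers were partly present. Of 8 pluripotency genes 5 were expressed (62.5%), where 50.7% of all genes were. The 8 genes summed to 112 to 116 FPKM, mostly from Sox2, which is also on the list of neural markers. Dppa5a, Klf4 and Esrrb stood at 15.6 ± 2.48, 10.4 ± 2.35 and 6.17 ± 0.222 FPKM. Nanog and Tdgf1 stood at 0.0879 ± 0.0318 and 0.101 ± 0.0290 FPKM. Pou5f1, chosen after its values were seen, stood at 0.815 ± 0.0792 FPKM. The part of pluripotent cells in the Zic2 level was not tested.

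Lmx1a, a LIM homeobox gene that specifies the roof plate, stood at 0.210, 0.148 and 0.247 FPKM, a mean of 0.202 ± 0.0502 (SD, n = 3). Its relative Lmx1b, used by dI5 neurons and the isthmus, scattered widely at 0.464, 0.0518 and 0.117 FPKM. Lmx1b exceeded Lmx1a in replicate 1 and lay below it in the others. No order of the pair can be read from these values.

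Pax3 and Pax7, paired box genes of dorsal progenitors, neural crest and muscle precursors, were close to 0. Pax3 stood at 0.0180, 0.0162 and 0.0610 FPKM, a mean of 0.0317 ± 0.0253 (SD, n = 3), and Pax7 was listed at 0.00808, 0.0252 and 0. The value of Pax3 in replicate 3 was well above the other two, and the values of the pair overlapped. Single libraries set these means, as that of Pax3 was 0.0171 FPKM without replicate 3 and that of Pax7 was 0.00404 FPKM without replicate 2, against 0.0111 FPKM over all 3. Pax6, the family member of the intermediate and ventral neural tube, stood at 11.8, 11.8 and 10.8 FPKM, and the log2 ratio of Pax3 over Pax6 was -8.78 ± 1.14. Pax2 (given above) and Pax8, at 5.12 ± 0.249 FPKM, mark interneurons, and Pax5 stood at 1.11 ± 0.0779. Thus 4 of the 9 Pax genes were expressed, where 50.7% of all genes were, and the dorsal pair was not among them.

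Atoh1, the basic helix-loop-helix gene of the dI1 progenitors, was listed at 0 in every replicate, as were 23.2% of all genes. A listed 0 may be a failed estimate, so no more is said of its level. Its relatives Atoh7, a retinal gene, and Atoh8 stood at 0.413 ± 0.289 and 0.664 ± 0.014 FPKM (SD, n = 3).

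**Figure D2:**
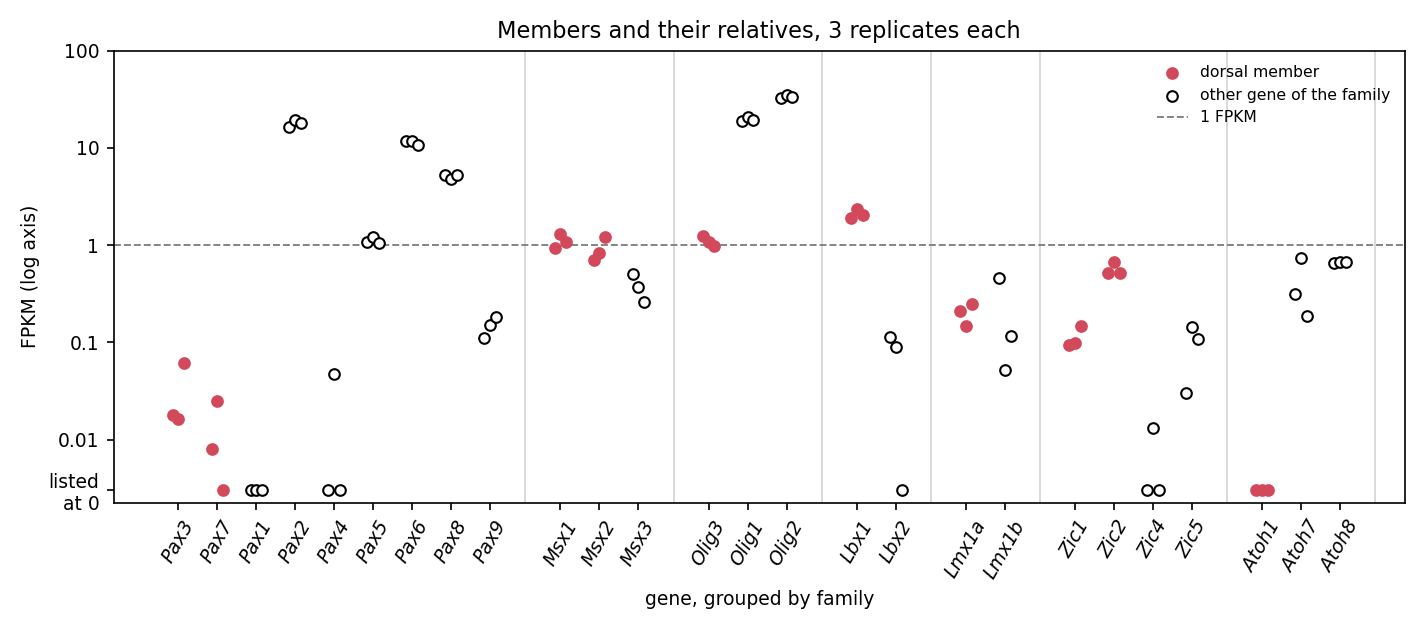
FPKM (log axis, values of 0 in the lowest band) of the dorsal members (filled) and other genes of the same families (open), with a point for each of 3 replicates and a dashed line at 1 FPKM. Olig2, Olig1, Pax2, Pax6 and Pax8 lie above 4 FPKM in every replicate, whereas the Msx, Zic, Lmx1 and Atoh families lie below 1.3 FPKM.

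The precision of the lowest members can be gauged from the steps of their values. Scaled by relative depth, the values of Pax7 fit 1, 2 and 0 fragments within 1%, and those of Zic1 fit 3, 2 and 4. Multiples of these numbers fit equally well, so they are lower limits and not counts. No whole numbers up to 5, a limit set after the values were seen, fit Pax3. A difference between replicates of such a gene can thus rest on very few fragments.

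Ordered by mean, the members ran from Lbx1 through Olig3, Msx1, Msx2, Zic2, Lmx1a, Zic1, Pax3 and Pax7 to Atoh1. Of the 9 neighbouring pairs, 4 were separate in all replicates. These were Lbx1 above Olig3, Msx2 above Zic2, Zic2 above Lmx1a and Zic1 above Pax3. The values of the other 5 pairs overlapped, although Lmx1a was above Zic1 within each of the 3 libraries. No p-value is given, because 3 values against 3 cannot go below an exact permutation p of 0.1.

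Other genes of dorsal progenitors spanned a wide range of levels. Of 13 such genes outside the members 5 were expressed (38.5%), where 50.7% of all genes were, with a list median of 0.382 FPKM. The proneural genes Neurog2 and Neurog1 stood at 18.1 ± 0.942 and 6.77 ± 0.481 FPKM (SD, n = 3) and Irx3 at 20.4 ± 1.41. These 3 genes and Pax6, given above, also act in ventral or intermediate progenitors. Ptf1a, which specifies dI4 neurons and is confined to dorsal progenitors in the spinal cord, was listed at 0.0257, 0 and 0 FPKM. In bulk RNA, fewer cells of a type and less RNA per cell cannot be told apart.

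Ligands of the roof plate were mostly below 1 FPKM. Of 14 roof plate and dorsal signal genes 1 was expressed (7.14%), Bmp7 at 14.7 ± 0.349 FPKM (SD, n = 3), and the list median was 0.246 FPKM. Without replicate 1 the count was 2, with Bmp6 added (0.985 ± 0.0864 FPKM). Gdf7, a BMP ligand that marks the roof plate, stood at 0.0813 ± 0.0223, and Wnt3a, a roof plate Wnt, was listed at 0, 0.0608 and 0. Wnt1 and Bmp4, chosen after their values were seen, stood at 0.260, 0.0716 and 0.0719 FPKM and at 0.484 ± 0.0498 FPKM. Of 12 genes that respond to BMP and Wnt signals 9 were expressed (75%), where 50.7% of all genes were, with a median of 3.49 FPKM. Id4, Id2 and Id3, helix-loop-helix inhibitors, stood at 58.9 ± 1.28, 38.2 ± 1.27 and 24.7 ± 2.15 FPKM. Targets of Wnt signalling were mixed. Sp5 and Notum stood at 0.0994 ± 0.0691 and 0.0600 ± 0.0339. Axin2, Nkd1 and Tcf7 stood at 5.91 ± 0.370, 1.98 ± 0.0814 and 1.75 ± 0.242 FPKM, and Lef1 at 0.138 ± 0.0260. Axin2, Nkd1, Tcf7 and Lef1 were chosen after their values were seen.

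Among genes of the dorsal interneuron classes dI1 to dI6, the 4 highest, Lhx1, Bhlhe22, Pax2 and Isl1, are also known from ventral neurons. Of 19 genes found (Drgx was not found by symbol) 9 were expressed (47.4%), near the 50.7% of all genes, with a median of 0.922 FPKM. Bhlhe22 stood at 20.7 ± 0.998 FPKM (SD, n = 3) and Isl1, which dI3 neurons share with motor neurons, at 17.6 ± 0.452. Lhx9 of dI1 neurons was listed at 0, 0 and 0.0208 FPKM, and Prdm13, a gene of dorsal inhibitory progenitors, at 0.0334, 0 and 0.0131. Barhl2 and Tlx1, chosen after their values were seen, were listed at 0 in every replicate. Lhx5 and Dmrt3 of the same list, chosen likewise, were expressed, at 15.9 ± 0.752 and 2.27 ± 0.237 FPKM. Pou4f1 and Tlx3, also chosen afterwards, are excitatory dorsal neuron genes and stood at 1.30 ± 0.122 and 0.492 ± 0.141. On the ventral side 8 of 12 progenitor and floor plate genes were expressed (66.7%), with a median of 1.69 FPKM, led by Nkx6-1 at 37.5 ± 1.56. Foxa2, at 6.47 ± 1.54 FPKM, was 1 of these 8 and is also on the list of extraembryonic endoderm markers. The log2 ratio of Msx1 over Nkx6-1 was -5.11 ± 0.22.

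**Figure D3:**
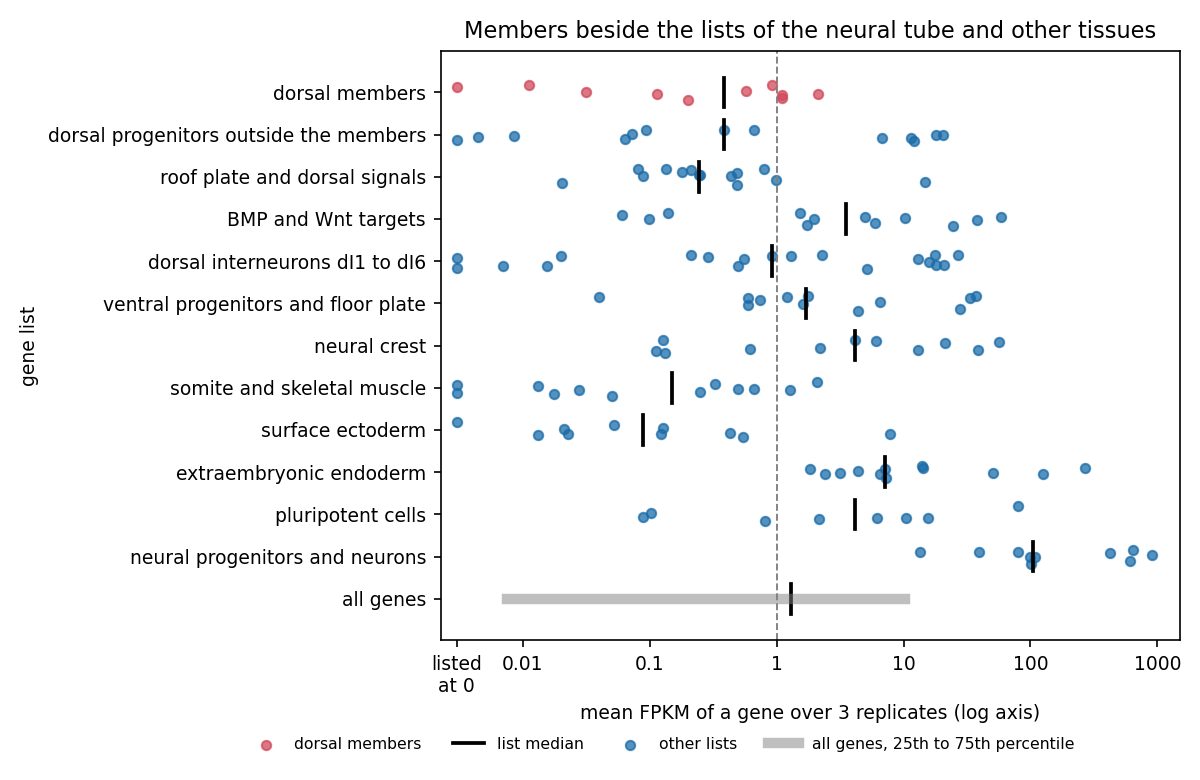
Mean FPKM over 3 replicates (log axis, 0 in the lowest band) of each gene, by list, with the 10 dorsal members at the top, a black bar for each list median and a grey bar for the middle range of all genes. The members' median of 0.385 FPKM lies below the median of all genes of 1.31, and the lists of neural markers and extraembryonic endoderm lie above it.

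Several members are also known from other tissues, whose markers are given beside them. Pax3, Pax7, Msx1 and Zic1 are known from early neural crest. Of 11 neural crest genes 7 were expressed (63.6%), where 50.7% of all genes were. The 11 genes summed to 142 to 143 FPKM in the replicates, mostly from Ngfr, Sox9 and Sox10. Bulk RNA does not tell which cells carried them, so the sum does not measure neural crest. Ngfr, Sox9 and Sox10 stood at 56.8 ± 2.14, 38.3 ± 0.416 and 21.1 ± 1.21 FPKM (SD, n = 3) and Foxd3, an early crest gene also known from dI2 and V1 neurons, at 13.0 ± 0.391. Of other genes of early crest, Snai1 and Ets1 stood at 4.11 ± 1.19 and 2.19 ± 0.248 FPKM, and Tfap2a and Snai2 at 0.126 ± 0.0267 and 0.112 ± 0.0587. Twist1 and Tfap2b stood at 0.619 ± 0.238 and 0.132 ± 0.0288 FPKM. Snai1, Ets1, Twist1 and Tfap2b were chosen after their values were seen. Pax3, Pax7 and Lbx1 are known from muscle precursors. Of 12 somite and muscle genes 2 were expressed (16.7%), Met (2.09 ± 0.0576 FPKM) and Tcf15 (1.26 ± 0.145). The 12 genes summed to 4.90 to 5.49 FPKM, and Myf5 and Msgn1 were listed at 0 in every replicate. Of 10 surface ectoderm genes 1 was expressed (10%), Gata3, which V2b neurons also use. The 10 genes summed to 8.82 to 9.32 FPKM, with Krt14 listed at 0. The part of these cell types in the members' levels was not tested.

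Of the 8 members above 0 in every replicate, 5 had their lowest value in replicate 1, a pattern found in 37.3% of the 16385 such genes. These were Lbx1, Msx1, Msx2, Zic1 and Zic2. Extraembryonic endoderm markers were lower in replicate 1 too, in 11 of 12 genes, with sums of 408, 550 and 558 FPKM in replicates 1, 2 and 3, and their part in the members' levels was not tested. The median deviation from the gene's own mean in replicate 1, in log2(FPKM + 1), was -0.10 for the 3 members that averaged 1 FPKM or more (Lbx1, Olig3 and Msx1) and -0.30 for the 12 endoderm genes. With a pseudocount of 0.1 the value of those 3 members was -0.14, and over all 10 members with a pseudocount of 1, which draws the deviations of genes near 0 towards 0, it was -0.02. The members did not move as a group, as Lbx1, Msx1 and Zic2 were highest in replicate 2, Msx2, Lmx1a, Zic1 and Pax3 in replicate 3 and Olig3 in replicate 1.

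**Figure D4:**
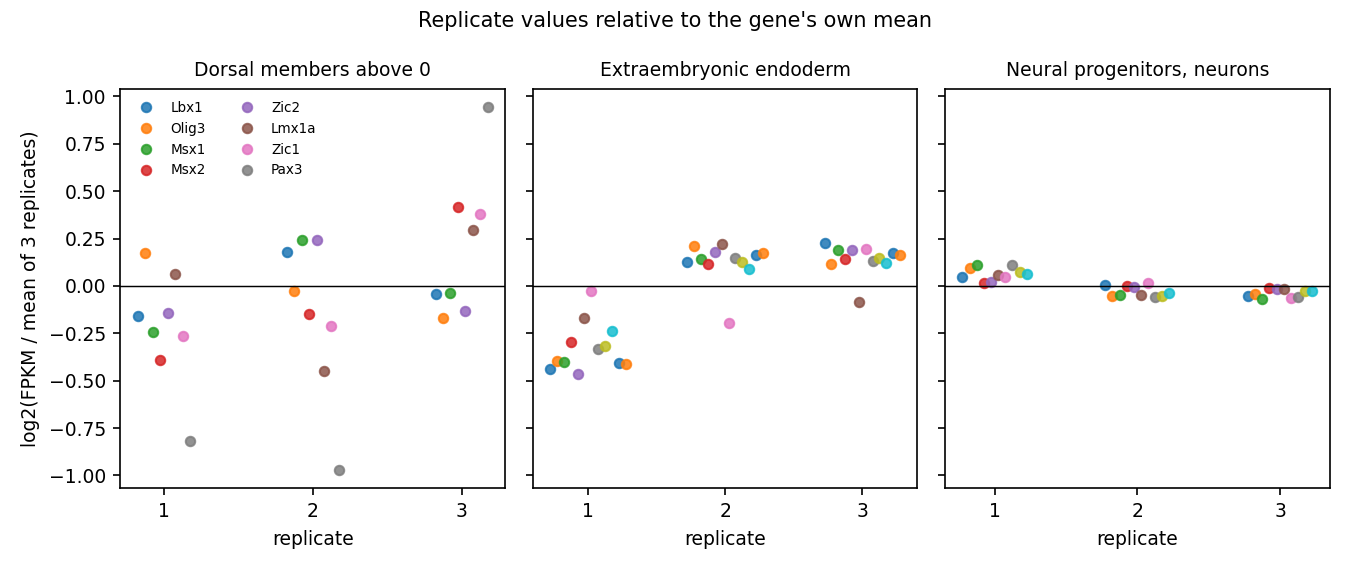
Value of each gene in each replicate relative to its own mean over 3 replicates (log2 of the ratio), for the 8 dorsal members above 0 in every replicate, 12 extraembryonic endoderm genes and 10 neural genes, with a point for each gene. In replicate 1, 5 of the 8 members and 11 of the 12 endoderm genes lie below their values in both other replicates.

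The share of expressed genes among the chromosomal neighbours of the members was near that of protein-coding genes at large. In the gene order of GRCm38, 20 protein-coding genes flank the members, and 17 of these are in the table. Of these 11 were expressed (64.7%), where 58.1% of protein-coding genes in the table were. The examples that follow were chosen after their values were seen. Epha4, a guidance receptor gene next to Pax3, stood at 19.9 ± 1.15 FPKM and Smarcad1, a chromatin remodeller gene next to Atoh1, at 18.5 ± 0.186 (SD, n = 3). Tlx1, next to Lbx1, was among those listed at 0.

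The promoter windows of the members ranged from poor to rich in CpG. The ratio of observed to expected CpG in the 200 bases before the start had a median of 0.645 over the 7 members with a window. It was 0.386 over all 32851 windows, and 6 of the 7 lay above that median, Pax7 only just (above 50.7% of windows). Zic1, whose window is shown above, had 24 CpG and a ratio of 1.01, above 93.3% of all windows. Msx1, Atoh1 and Msx2 had ratios of 0.772, 0.729 and 0.645, and Lmx1a, Pax7 and Olig3 0.461, 0.395 and 0.228. Among genes with a single window in the table, 84.3% of the 6590 with a ratio of at least 0.6, a limit in common use for CpG islands, were expressed, and 22.2% of the 7618 below it. Of the 7 members, 4 lay on the CpG-rich side (Zic1, Msx1, Atoh1 and Msx2) and 3 below, beside those 6590 and 7618 genes. None of the 7 was called expressed.

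**Figure D5:**
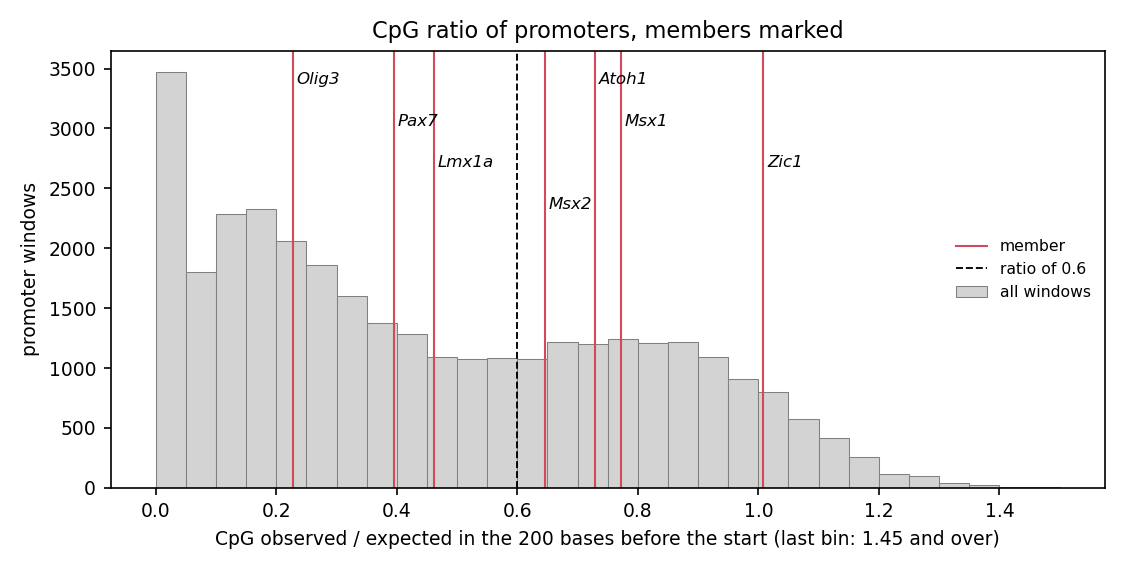
Number of promoter windows by the ratio of observed to expected CpG in the 200 bases before the start, for all 32851 windows (grey bars), with lines at the 7 members and a dashed line at 0.6. Zic1 stands farthest to the right at 1.01 and Olig3 farthest to the left at 0.228.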

How the data were processed

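RNA-seq values were read as FPKM, which the authors deposited as a table of 24002 gene symbols with a column per replicate. Its header names no unit. The reading rests on Cufflinks, which the submitters' processing notes name beside Bowtie and mm9, and on the form of the values. Versions, settings, strand use and scaling between libraries are unknown here, and overlapping and antisense genes are uncertain. Samples were grouped by title. Promoter windows and gene order come from RefSeq tables of GRCm38.p6. The ATAC-seq regions of the same series are in mm9, for which no annotation was used here, and were not analysed here.

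Means and SDs are over 3 replicates. The condition is single, so no test was made. Ratios of genes are log2 FPKM ratios within a library, with no pseudocount. Relative depth is the most common ratio of values between 0.001 and 0.1 FPKM in a pair of libraries, taken as that of equal read numbers, and was tested on simulated data. The values of some listed genes are not reported here. Named genes were the members, their families and, from each list, the 4 highest and 2 lowest above 0. Members and lists were chosen with earlier results of these data known. Python 3.11.15, numpy 2.4.6 and pandas 2.3.3 were used.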

Additional observations from a re-analysis of the deposited data

How the results depend on the processing

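The count of expressed members, 1 at 1 FPKM in every replicate, was 5 at 0.5 FPKM, 0 at 5 FPKM and 3 when the mean alone had to reach 1 FPKM, and it ranged from 1 to 2 when a replicate was left out. Both scalings of the libraries left it at 1. At 5 FPKM, 5 BMP and Wnt targets were expressed against 9 at 1 FPKM, 3 ventral genes against 8, 0 somite and muscle genes against 2 and 7 extraembryonic endoderm genes against 12. The roof plate count of 1 became 3 at 0.5 FPKM. All 50 alternative means of the members' FPKM stayed within 1 SD, but these settings could hardly give another outcome. Leaving out 1 of 3 values cannot move a mean by 1 SD, and the scaling factors lay between 0.997 and 1.004. The means of the lowest members still changed much. That of Pax3 was 0.0171 FPKM without replicate 3, against 0.0317 with it. That of Pax7 was 0.00404 without replicate 2, against 0.0111 with it. Of 55 alternative log2 ratios of gene pairs 12 moved by more than 1 SD, all with a pseudocount. Leaving out 1 of 3 values cannot move a mean ratio by 1 SD, so only the pseudocount settings could do so. No setting could turn the sign of a ratio whose order held in every library, so the unchanged signs are no check. The ratio of Zic2 over Zic1, 2.34 without a pseudocount, was 1.65 with 0.1 and 0.49 with 1, since a pseudocount shrinks ratios of low genes. Depth ratios from values up to 0.05 FPKM were the same within the tolerance. Unknown depth gives no counting interval for any member. No paired analysis was possible because the RNA-seq and ATAC-seq samples share replicate numbers but hold different measurements of a single condition.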
